A study of Mus musculus with 6 samples.

Results

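The 8 genes described here are Ifit1, Ifit2, Ifit3, Ifit3b, Mx1, Mx2, Rsad2 and Cmpk2, antiviral effector genes of the interferon response. They were chosen by name from the 24972 gene rows of the deposited table, and all 8 were present. The 6 libraries hold RNA of ventricular cardiomyocytes of MX1gfp mice, 3 from the vehicle group (phosphate-buffered saline) and 3 from the group given doxorubicin, 25 mg per kg of body weight. Either was injected into the peritoneum 48 hours before the hearts were taken. Doxorubicin is an anthracycline that poisons topoisomerase II, breaks DNA and is toxic to the heart. Both groups carried the MX1gfp genotype, a reporter of Mx1 by its name, so that Mx1 was not studied at a locus known to be unaltered. Myocytes were collected by settling under gravity, and the labels name no sort. The labels state no sex or age, and they do not say whether a library is 1 mouse, so p-values measure only the spread between these libraries.

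Type I interferon binds the receptor formed by Ifnar1 and Ifnar2 and signals through the kinases Jak1 and Tyk2 to a complex with Irf9 that binds the interferon-stimulated response element of target promoters. The IFIT genes encode proteins of tetratricopeptide repeats that bind viral RNA and hinder its translation. Rsad2 encodes viperin, a radical SAM enzyme that turns CTP into a chain-terminating nucleotide, and the adjacent Cmpk2 encodes a mitochondrial nucleoside monophosphate kinase that can supply its substrate. The Mx genes encode dynamin-like GTPases that block viruses of several families.

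The genes lie at 3 loci of GRCm38, the assembly denoted by mm10, with coordinates from RefSeq. Ifit2 (34550550 to 34576534), Ifit3 (34583119 to 34588982), Ifit3b (34607530 to 34613403) and Ifit1 (34640889 to 34650009) lie within 99.5 kb of chromosome 19. The annotated span of Ifit1bl1 overlaps those of Ifit3b and Ifit1. Mx1 (97447035 to 97462906) and Mx2 (97536081 to 97560901) lie on chromosome 16, and RefSeq lists both as transcribed pseudogenes in this assembly. Rsad2 (26442743 to 26456452) and Cmpk2 (26469117 to 26479837) lie on chromosome 12, head to head and 12.7 kb apart.

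The response element has the core GAAANNGAAA. It was searched on both strands, overlapping matches counted separately, in the 250 bases before each annotated start in the RefSeq promoter table of GRCm38.p6. In that table, 978 of 32851 promoters (2.98%) held at least 1 match and 59 (0.18%) held 2 or more. Promoters of 6 of the 8 genes were in the table. Ifit1, Ifit3 and Ifit3b held 2 matches each, Rsad2 held 1, and the windows of Ifit2 and Cmpk2 held 0, which says only that these letters do not occur there. The matches are printed because they show the element that these genes are known to be regulated through, 5′ to 3′ on the strand of the gene, with the matches in capitals (all read as TTTCNNTTTC, the reverse complement of the core, on the printed strand).
Ifit1, chr19:34640785-34640813, plus strand: TTTCACTTTCcagtctcagTTTCAGTTTC
Ifit3, far match, chr19:34583363-34583392, plus strand: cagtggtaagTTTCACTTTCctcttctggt
Ifit3, near match, chr19:34583397-34583426, plus strand: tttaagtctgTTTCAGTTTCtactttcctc
Rsad2, chr12:26456553-26456582, minus strand: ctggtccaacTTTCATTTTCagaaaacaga
The first capital of each match lay at -104 and -85 in Ifit1, at -156 and -122 in Ifit3 and at -120 in Rsad2, where -1 is the base before the start that the promoter entry uses. Ifit3b carries the same letters as Ifit3 in both stretches (chr19:34607759-34607788 and chr19:34607793-34607822, plus strand), with its matches at -188 and -154. The starts of the Ifit3 and Ifit3b entries lie inside the longer gene spans given above, and the Ifit1 stretch lies inside the RefSeq spans of Ifit1bl1 and Ifit1bl2.

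The values are normalized read counts as deposited, and they summed to 7217950 to 7500390 per vehicle library and to 5410780 to 6498370 per doxorubicin library. From the spacing of the low values, about 7710000 to 11400000 reads lay behind each vehicle library and about 3670000 to 6170000 behind each doxorubicin library, so that depth and treatment cannot be told apart. Doxorubicin replicates 2 and 3 stand apart from the rest: the 10 cardiomyocyte markers summed to 606304 to 717758 in the vehicle libraries and 544867 in doxorubicin replicate 1, but to 184622 and 158699 in replicates 2 and 3. In RNA from a mixed suspension, fewer cells of a type and less RNA per cell cannot be told apart. The X-inactivation transcript Xist was read in vehicle replicate 3 (1558) and in doxorubicin replicates 1 (1933) and 3 (2093), and the Y-linked Ddx3y in the remaining 3 libraries (659 to 958).

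The main comparison asked whether the 8 genes differed between doxorubicin and vehicle. The log2 fold change, on the log2(value + 1) scale, was above 0 in all 8. It was smallest in Cmpk2 (0.50) and largest in Ifit1 (1.76), and the median was 1.09, while the median of the 12477 genes tested was -0.0046 and 49.6% of them were positive. Mx1 reached the minimum mean of 10 for testing only through doxorubicin replicate 3 and was at -0.40 without that library, and the median of the other 7 was 0.98. In 4 of the 8, the IFIT genes, every doxorubicin library lay above every vehicle library, as was so for 19.2% of all genes tested (41.8% had groups apart in either direction). Of the 8, 0 passed a Benjamini-Hochberg adjusted p of 0.05 in limma, as did 0 of all genes (0%). At an unadjusted p under 0.05 the IFIT genes passed, 4 of the 8, against 16.7% of all genes on the higher side. The size of the difference depended on the library: the median change from the vehicle mean was 0.85 for doxorubicin replicate 1, 0.11 for replicate 2 and 1.83 for replicate 3. Replicate 1 lay above every vehicle library in 7 of the 8 genes, replicate 2 in 4 and replicate 3 in 8, where 29.4%, 39.8% and 42.3% of all genes did so.

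Leaving out doxorubicin replicate 1 brought the adjusted p of Ifit1, Ifit3 and Ifit3b to 0.00679, 0.00756 and 0.0143 in limma, and 19.3% of all genes then passed as higher (41.1% in either direction). The other 5 genes did not pass without it. Leaving out doxorubicin replicate 3 lowered the median log2 fold change of the 8 genes from 1.09 to 0.51. Leaving out replicate 2 raised it to 1.35, and 7 of the 8 genes then had groups apart, against 23.9% of all genes.

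**Figure D1:**
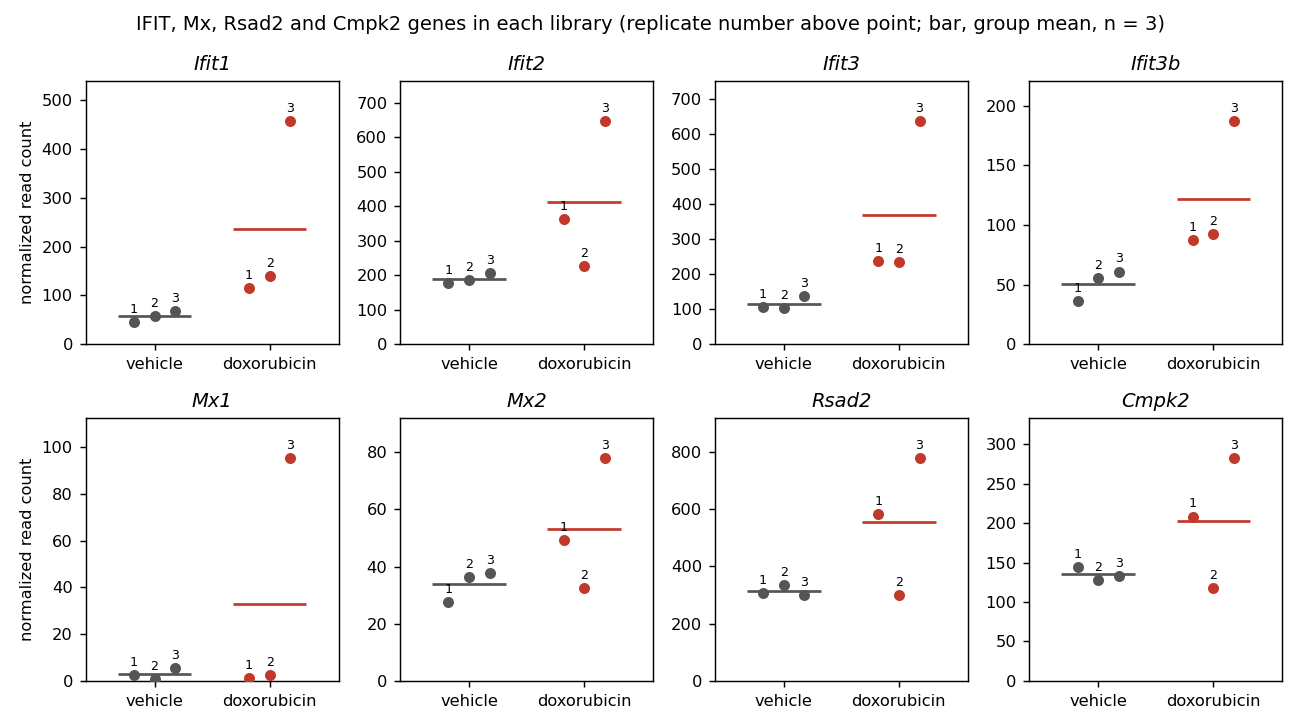
Normalized read count (vertical axes, from 0) of each of the 8 genes in the 3 vehicle (grey) and 3 doxorubicin (red) libraries, with the replicate number above each point and the group mean as a bar. Doxorubicin replicate 3 is the highest library in all 8 panels, and replicate 2 lies among the vehicle libraries or below them in Mx1, Mx2, Rsad2 and Cmpk2.

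Ifit1, which encodes a protein that recognises the cap of foreign RNA, differed most among the IFIT genes. It was at 46.1, 57.9 and 68.5 normalized counts in vehicle replicates 1 to 3 and at 115, 140 and 457 in doxorubicin replicates 1 to 3. The groups did not overlap, and replicate 3 stood far above the other two doxorubicin libraries. The means were 57.5 ± 11.2 and 237 ± 191 (SD, n = 3 each), a 4.13-fold difference of means, and the log2 fold change was 1.76 (SE 0.49, limma adjusted p 0.0859). Without replicate 3 the log2 fold change was 1.14.

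Ifit3 encodes a protein that binds and stabilises Ifit1 in complexes of the family. It was at 106, 103 and 137 in the vehicle libraries and at 237, 235 and 637 in the doxorubicin libraries. Replicates 1 and 2 were nearly alike, and both lay above the highest vehicle library. Its log2 fold change was 1.52 (SE 0.38, limma adjusted p 0.0859), which placed Ifit3 at rank 535 of all genes by unadjusted p, ahead of the other 7.

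Ifit3b is a close copy of Ifit3 that lies between it and Ifit1. Its values were 35.9, 55.7 and 60.9 in the vehicle libraries and 87.0, 92.5 and 187 in the doxorubicin libraries, again with no overlap. The log2 fold change was 1.19 (SE 0.34, limma adjusted p 0.0859). Of the 50-base windows of the Ifit3 transcript in GENCODE M21, 51.2% also occur in Ifit3b, and 44.5% of those of Ifit3b occur in Ifit3, so how the counting divided reads between them is uncertain. Added together, the pair was at 142, 159 and 198 in the vehicle libraries and at 324, 328 and 824 in the doxorubicin libraries. That sum, a choice made after the data were seen, had a log2 fold change of 1.43 (limma adjusted p 0.0860), between those of its parts. The ratio of Ifit3b to Ifit3 ranged from 0.340 to 0.542 after vehicle and from 0.293 to 0.393 after doxorubicin, so the ranges overlap.

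Ifit2, an RNA-binding member of the family, was at 178, 187 and 206 in the vehicle libraries and at 363, 228 and 647 in the doxorubicin libraries. Replicate 2 exceeded the highest vehicle library by little, whereas replicates 1 and 3 stood clear of it. On the log2 scale the groups differed by 0.98 (SE 0.34, limma adjusted p 0.0962), and by 0.60 without replicate 3. None of its 50-base windows (0%) is found in the transcripts of another gene, so Ifit2 is free of the sharing that touches Ifit3 and Ifit3b.

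Rsad2 behaved differently from the IFIT genes in doxorubicin replicate 2. It was at 306, 334 and 299 in the vehicle libraries and at 582, 301 and 779 in the doxorubicin libraries. Replicates 1 and 3 lay far above the vehicle range and replicate 2 lay within it. The log2 fold change was 0.72 (SE 0.32, limma adjusted p 0.1503), and without replicate 2 it was 1.10 (SE 0.18, adjusted p 0.166). The vehicle libraries were close to each other, with an SD of 0.08 on the log2 scale, against 0.70 among the doxorubicin libraries.

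Cmpk2 followed Rsad2. Its values were 144, 128 and 133 in the vehicle libraries and 208, 117 and 283 in the doxorubicin libraries, with replicate 2 below the lowest vehicle library. On the log2 scale the difference was 0.50 (SE 0.30, limma adjusted p 0.263), and it was 0.84 without replicate 2 and 0.21 without replicate 3. Over the 6 libraries, which pool both groups, the log2 values of Rsad2 and Cmpk2 had a Pearson r of 0.97, and those of Ifit1 and Ifit3 one of 0.99, while Ifit1 with Cmpk2 gave 0.75. Ifit2 gave 0.96 with Rsad2 and with Mx2, 0.95 with Ifit3, 0.935 with Cmpk2, 0.93 with Ifit1 and 0.91 with Ifit3b. When each library was scaled to the same total, the changes of Rsad2 and Cmpk2 in replicate 2 turned from -0.06 and -0.20 to 0.22 and 0.08 on the log2 scale, and the median of all genes moved from -0.0046 to 0.30. Under that scaling 6 of the 8 genes had groups apart, the IFIT genes with Mx2 and Rsad2, against 36.8% of all genes.

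**Figure D2:**
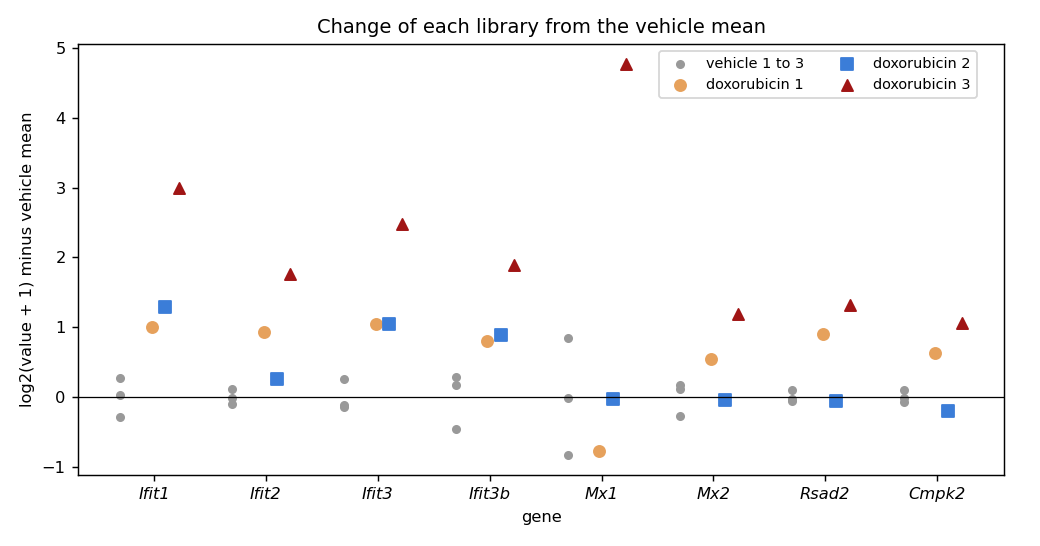
Change of each library from the vehicle mean on the log2(value + 1) scale (vertical axis) for the 8 genes (horizontal axis), with vehicle libraries in grey and doxorubicin replicates 1, 2 and 3 as circles, squares and triangles. Replicate 2 reaches 1.28, 1.04 and 0.88 in Ifit1, Ifit3 and Ifit3b but -0.05, -0.06 and -0.20 in Mx2, Rsad2 and Cmpk2.

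Mx2 resembled Rsad2. It was at 27.5, 36.5 and 37.8 in the vehicle libraries and at 49.4, 32.4 and 78.1 in the doxorubicin libraries, with replicate 2 inside the vehicle range. Its difference was 0.56 on the log2 scale (SE 0.34, limma adjusted p 0.264).

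Mx1, the gene the reporter genotype is named for, was high in 1 library. It was at 2.48, 0.971 and 5.34 in the vehicle libraries and at 1.06, 2.43 and 95.4 in the doxorubicin libraries, so that the groups overlapped. By the estimated worth of a read, about 1.01 to 6.11 reads lay behind each vehicle value, 1.01 and 2.01 behind doxorubicin replicates 1 and 2, and 64.5 behind replicate 3. The log2 fold change was 1.32 (SE 1.46, limma adjusted p 0.533) and became -0.40 without replicate 3. The row passed the minimum mean of 10 only through that library. How the reporter allele affects this row is not given in the sources used here, and reads of the reporter itself were not analysed here. Of the 50-base windows of the Mx1 transcript, 4.77% occur in Mx2.

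Levels of different genes were set side by side per kb of the longest coding transcript in GENCODE M21, as normalized counts per kb. In the vehicle libraries the order of means was Rsad2 at 82.8 ± 4.95, Ifit3 at 66.0 ± 10.8, Ifit2 at 49.9 ± 3.86, Cmpk2 at 42.2 ± 2.67, Ifit3b at 25.4 ± 6.60, Ifit1 at 21.65 ± 4.22, Mx2 at 14.0 ± 2.32 and Mx1 at 0.867 ± 0.656 (SD, n = 3). Among neighbours in that order, the ranges of Ifit3b and Ifit1 overlapped and those of the other pairs did not. In the doxorubicin libraries Ifit3 came first at 212 ± 133, before Rsad2 at 146.5 ± 63.6, Ifit2 at 108 ± 56.0 and Ifit1 at 89.3 ± 71.9. Cmpk2 at 63.35 ± 25.9 and Ifit3b at 61.1 ± 28.1 followed, then Mx2 at 22.05 ± 9.54 and Mx1 at 9.74 ± 15.98. Every pair of neighbours in that order overlapped except Ifit3b and Mx2.

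Not all genes of the IFIT cluster were higher after doxorubicin. Ifit1bl2, a relative of Ifit1 that lies just before it, was at 44.6, 45.7 and 50.5 in the vehicle libraries and at 31.2, 21.8 and 10.2 in the doxorubicin libraries. Every doxorubicin library lay below every vehicle library, as in 22.6% of all genes, and its difference was -1.25 on the log2 scale (SE 0.40, adjusted p 0.0878 in limma). Replicate 3, where Ifit1 was highest, held the lowest Ifit1bl2 value. Ifit1bl1 was at 34.8 to 58.7 after vehicle and at 32.4 to 65.1 in the doxorubicin libraries, with a log2 fold change of -0.11 (adjusted p 0.838). Of the 50-base windows of Ifit1, 7.06% occur in Ifit1bl2.

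Outside the loci, the nearest genes with a mean of at least 10 gave a mixed picture. Lipa, which encodes lysosomal acid lipase and lies 23.1 kb before Ifit2, was at 252, 303 and 282 in the vehicle libraries and at 354, 649 and 779 in the doxorubicin libraries (log2 fold change 1.02, limma adjusted p 0.0859). Slc16a12, a monocarboxylate transporter gene 18.4 kb beyond Ifit1, had a log2 fold change of -0.39 (adjusted p 0.544) with overlapping groups. Bace2, 4.1 kb from Mx1, had one of 0.33 (adjusted p 0.392), and Ripk4, 181 kb beyond Mx2, one of -0.91 (adjusted p 0.138). Rnf144a, a ubiquitin ligase gene 27.4 kb from Rsad2, was at 251.3 to 316 after vehicle and at 357 to 436 after doxorubicin (0.48, adjusted p 0.0898). Colec11, the nearest such gene on the other side of Cmpk2, lies 2114.3 kb away and had a log2 fold change of 0.22 (adjusted p 0.619).

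**Figure D3:**
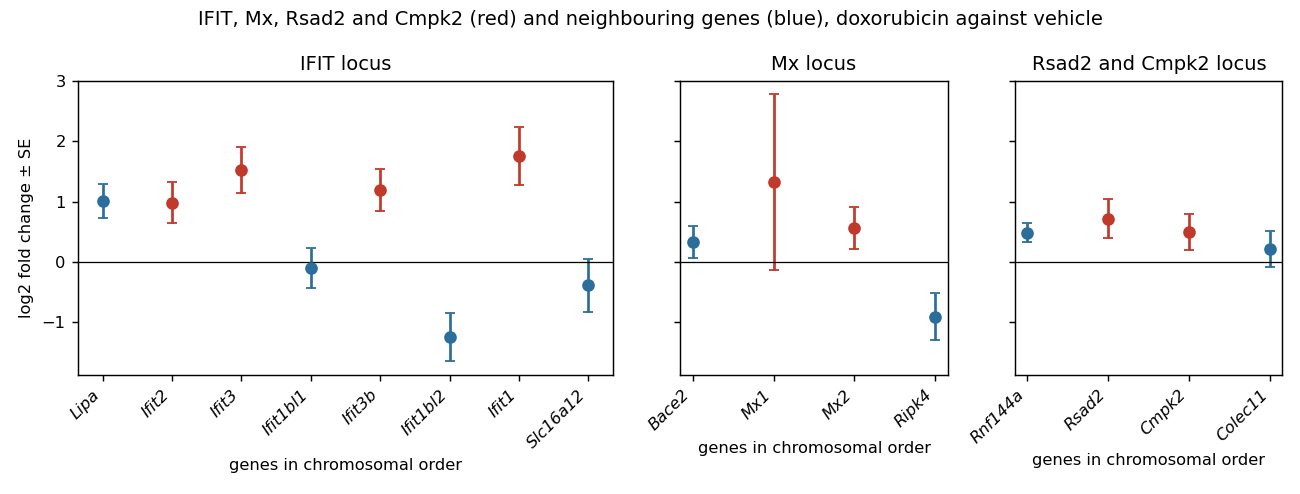
Log2 fold change of doxorubicin against vehicle with its SE (vertical axes) for the 8 genes (red) and their neighbours (blue), in chromosomal order at each locus. In the IFIT cluster Ifit1bl1 at -0.11 and Ifit1bl2 at -1.25 lie below the 4 IFIT genes, which lie between 0.98 and 1.76.

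Relatives of Cmpk2 and of the Mx genes were compared in the same way. Cmpk1, which encodes the cytosolic kinase related to Cmpk2, was at 307 to 335 after vehicle and at 258 to 349 in the doxorubicin libraries (log2 fold change -0.02, SE 0.16, limma adjusted p 0.928). Among the dynamin genes related to Mx, Dnm2 was at 783 to 820 and 798 to 820 (0.02, adjusted p 0.942), Dnm1 had a log2 fold change of 0.52 (adjusted p 0.169) and Dnm1l, which encodes the mitochondrial fission dynamin, one of -0.72 (adjusted p 0.108).

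The ligands of the pathway were almost unread. Of 21 interferon genes, 19 were listed at 0 in every library, Ifnb1 and all alpha genes among them. Ifnz had a single value above 0, of 0.635 in vehicle replicate 1, and Ifng had 1.05 and 1.21 in doxorubicin replicates 1 and 2, each about the worth of a single read. Differences in ligand transcripts were not detectable at this depth.

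Of the 90 pathway genes listed, 89 matched a row under the listed symbol or a synonym (Cgas as Mb21d1, Sting1 as Tmem173). The sensor Rigi was matched to no row by this search and was left out, which says nothing of its level. Of the matched genes, 68 were tested. Of these 63 had a positive log2 fold change, with a median of 0.84, 43 had doxorubicin libraries all above the vehicle libraries (19.2% of all genes did) and 3 had them all below (22.6% of all genes). Of the 68, 5 had a vehicle mean under 10 and entered the test only through doxorubicin, and the median of the other 63 was 0.80. In limma 0 of the 68 passed an adjusted p of 0.05, and without doxorubicin replicate 1 there were 39 higher and 3 lower, where 19.3% of all genes passed as higher and 41.1% in either direction. The receptors were split. Ifnar1 was at 237 to 282 after vehicle and at 272 to 499 in the doxorubicin libraries (log2 fold change 0.43, adjusted p 0.215). Of the receptors for other interferons, Ifngr1 had a log2 fold change of 1.12 and Il10rb one of -0.78, both at an adjusted p of 0.0859.

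Among kinases and factors, the median of 9 was 0.36, and 5 had groups that did not overlap on the higher side, against 19.2% of all genes. Irf9, the DNA-binding part of the complex, was at 119 to 166 after vehicle and at 230 to 341 in the doxorubicin libraries (log2 fold change 0.94, limma adjusted p 0.0859). Irf7, which amplifies interferon production, was at 96.1 to 113 and at 206, 391 and 1090 (2.06, adjusted p 0.0859). Irf1 had a log2 fold change of 0.96 (adjusted p 0.0859).

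The other antiviral effectors lay on the same side. Each of the 43 lay above 0, at log2 fold changes between 0.38 and 2.76 (median 0.86), and in 33 the doxorubicin libraries lay above the vehicle libraries, against 19.2% of all genes. Oas1g, Oas3 and Cxcl10, with Oas3 at the upper end, had vehicle means under 10 and were tested only through the group where they were high. The other 40 reached 2.10, with a median of 0.84, and 31 of them had groups apart. Ifitm3, which blocks viral entry at endosomes, and Epsti1 had the smallest unadjusted p, with log2 fold changes of 1.39 and 1.76 (limma adjusted p 0.0859 each). Isg15, a ubiquitin-like modifier, was at 39.95 to 47.7 after vehicle and at 93.7, 55.1 and 264 in the doxorubicin libraries (1.37, adjusted p 0.107). Of the sensors, Zbp1 and Ifih1 had log2 fold changes of 3.16 and 0.90 (adjusted p 0.0859 each), and Zbp1, with a vehicle mean of 6.63, was tested only through the group where it was high. The feedback genes Usp18, which removes Isg15 and damps the receptor, and Socs1 had log2 fold changes of 1.23 and 0.62 (adjusted p 0.115 and 0.284).

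**Figure D4:**
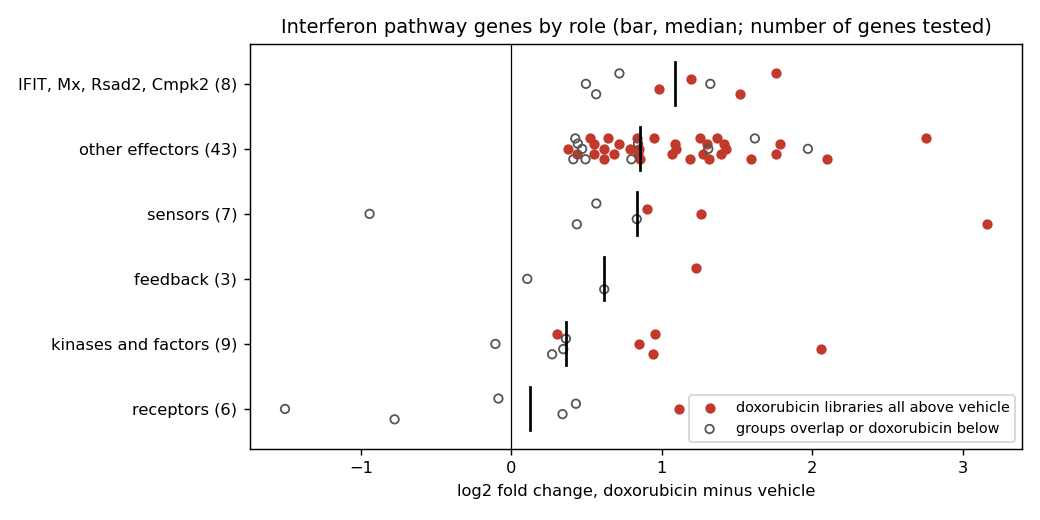
Log2 fold change (horizontal axis) of the 8 genes and of 5 lists of pathway genes by role (vertical axis), filled red where all doxorubicin libraries lay above all vehicle libraries and open otherwise, with the median of each list as a bar. The other effectors all lie above 0, between 0.38 and 2.76, while the receptors reach from -1.51 to 1.12.

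Promoters with the response element were also looked at as a group. Of 9805 tested genes with a promoter in the table, 314 held at least 1 match. Their median log2 fold change was 0.23, against -0.0046 for all genes tested, and in 28.7% the groups did not overlap on the higher side, against 19.2%. All genes tested include those without a promoter entry. The 314 include Ifit1, Ifit3, Ifit3b, Rsad2 and pathway genes described above, so these are not separate observations. A match was held by 27 of the 72 pathway genes that have a promoter entry. Of the 6 genes with a promoter entry, those with 2 matches, Ifit1, Ifit3 and Ifit3b, had changes of 1.28, 1.04 and 0.88 in doxorubicin replicate 2 on the log2 scale. Those with 1 or 0, Rsad2, Ifit2 and Cmpk2, had -0.06, 0.26 and -0.20. In replicate 1 the values overlapped, at 1.00, 1.05 and 0.80 for the former and 0.89, 0.93 and 0.62 for the latter. In replicate 3 they were 2.99, 2.47 and 1.89 against 1.31, 1.76 and 1.06. Ifit3 and Ifit3b carry the same stretches and share much of their transcripts, so they are not separate cases. The part of the element in these changes was not tested.

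The genes whose pattern over the 6 libraries was most like the mean of the IFIT genes were Ubash3b, Tifab, Trim14, Kdm2a and Oas2, with Pearson r of 0.998 to 0.992 among 12467 genes. Oas2, which encodes an enzyme that makes the activator of RNase L, was at 87.6 to 122 after vehicle and at 224, 167 and 524 in the doxorubicin libraries. Trim14 was at 25.3 to 32.1 and at 51.8, 54.5 and 112. Likeness of this kind was common, since 189 genes had an r over 0.95. Those most like the mean of Rsad2 and Cmpk2 were Plcb1, Lrmp, Exosc6, Efna1 and Asb7 (r 0.996 to 0.989), among 52 genes over 0.95. Plcb1, a phospholipase C gene, was at 108 to 121 after vehicle and at 212, 106 and 269 in the doxorubicin libraries, with the same low replicate 2.

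Markers of other cell types differed between the groups. The 10 macrophage markers summed to 2583 to 2791 after vehicle and to 4238, 7421 and 15615 in doxorubicin replicates 1 to 3, and 9 of 10 had groups apart on the higher side, against 19.2% of all genes. Replicate 3, where all 8 genes were highest, thus had the highest macrophage sum, to which Lyz2 gave the most (6811). Adgre1, the gene of F4/80, was at 1818 there against 95.1 to 173 in the other 5 libraries. Mrc1 and Cd163 were higher in replicate 2 (778 and 795) than in replicate 3 (670 and 623), and C1qa was about level. The other macrophage markers were highest in replicate 3. Only Fcgr1 was lower in replicate 2 than in replicate 1 (14.5 against 36.8). The 6 neutrophil markers summed to 10.5 to 21.7 after vehicle and to 55.0, 563 and 419 in the doxorubicin libraries. Ly6g was at 0 in all vehicle libraries and in doxorubicin replicate 1. It was at 1.20 and 1.48 in replicates 2 and 3, each about the worth of a single read. The 8 endothelial markers summed to 14379 to 18692 and to 23542, 24206 and 31483, and the 7 fibroblast markers to 6081 to 7984 and to 8364, 22707 and 16161. Replicate 2 held more macrophage, neutrophil and fibroblast marker RNA than replicate 1. The fibroblast sum rested largely on Dcn, at 3113 in replicate 1 and 18072 in replicate 2. Of the other fibroblast markers, Col3a1 and Lum were lower in replicate 2 than in replicate 1 and the rest were higher. Replicate 2 also held more Ifit1 than replicate 1 and about as much Ifit3 and Ifit3b, but less Rsad2, Cmpk2, Mx2 and Ifit2. Mx1, at an estimated 1.01 and 2.01 reads in replicates 1 and 2, cannot be ordered between them. The order of Ifit1 over the 3 doxorubicin libraries was that of the macrophage sum. The endothelial sums of replicates 1 and 2 lay close, but the markers were split. Cdh5, Kdr, Tie1, Emcn and, by little, Egfl7 were lower in replicate 2 than in replicate 1, and Pecam1, Flt1 and Tek were higher. The 5 atrial markers summed to 456 to 526 after vehicle and to 1431, 368 and 708 in doxorubicin replicates 1 to 3, where Nppa gave the largest part (860, 234 and 495). Replicate 2 was the lowest of the 3, as it was for Rsad2, Cmpk2, Mx2 and Ifit2 and, by little, for Ifit3. The 5 erythroid markers summed to 1211 to 2104 after vehicle and to 9027, 250 and 421 in doxorubicin replicates 1 to 3. Replicate 2 was thus the lowest of the 3 there too, and also in the lymphocyte sum (52.4, 6.01 and 10.4). Siglech and Ccr9, markers of plasmacytoid dendritic cells, summed to 0.963 to 10.7 after vehicle and to 1.45 to 13.5 in the doxorubicin libraries. The part of these cells in the differences was not tested.

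**Figure D5:**
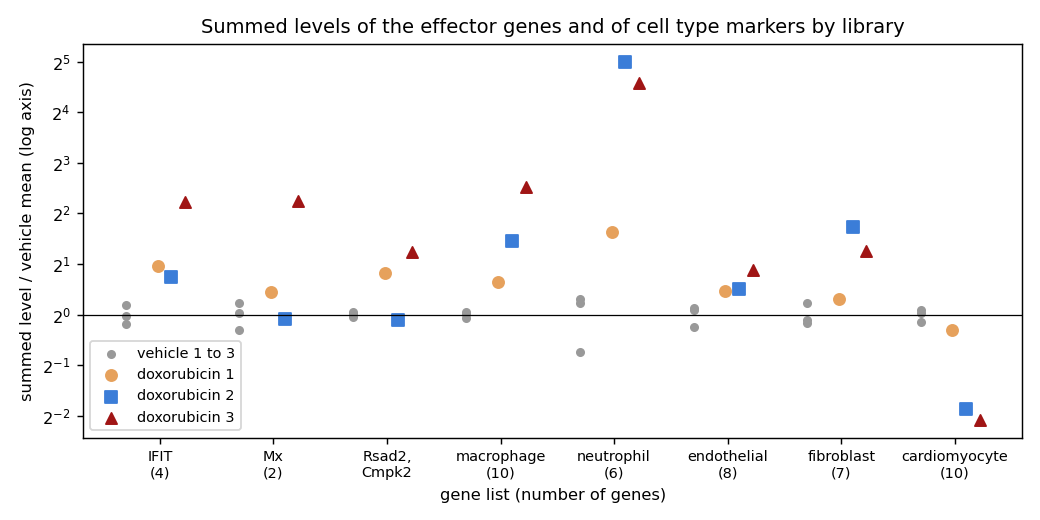
Summed level of the IFIT, Mx, and Rsad2 with Cmpk2 genes and of marker lists in each library, divided by the mean of the vehicle libraries (vertical axis, log scale), with vehicle in grey and doxorubicin replicates 1 to 3 as circles, squares and triangles. Replicate 3 is highest in the effector genes, the macrophage and the endothelial markers, and replicates 2 and 3 are low in the cardiomyocyte markers.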

How the data were processed

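Per the labels' protocols, alignment used the BaseSpace RNAseq Alignment application (2.0.2, with STAR) against mm10 and RefSeq genes. The companion application for differential expression (1.0.1) came next. The submitters' processing notes name STAR 2.6.1a and Salmon, the latter without a role. How reads were counted, whether strand was used and how values were normalized is not given in the sources used here. What the authors deposited is a signal: a normalized read count for each gene and library. Low values lay within 0.1 step of a whole multiple in 80.0% to 92.5% of cases, too few for count tests, so read numbers are estimates.

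Values were used as deposited. Genes with a mean of at least 10 entered limma 3.58.1 (R 4.3.3) on log2(value + 1), with a mean-dependent prior variance, two-sided, Benjamini-Hochberg adjusted over all 12477 genes, threshold 0.05. The fit was tested on simulated data with the same spread in both groups. In the deposited data the median SD on the log2 scale was 0.163 for vehicle and 0.334 for doxorubicin, so that test does not cover unequal spread. The log2(value + 1) scale understates changes of low genes. With 3 libraries against 3, an exact permutation test of a single gene cannot give a p below 0.1, so none is reported.

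The 8 genes and all lists were chosen with earlier results of these data known. Named besides the 8 were the related genes, the 2 genes of each pathway list with the smallest unadjusted p, a fixed set (Ifnb1, Ifnar1, Irf9, Irf7, Usp18, Isg15, with 1 more not reported here), the nearest flanking genes, and the 5 genes most like each of 2 patterns. Adgre1, Ly6g, Dcn, Col3a1, Lum, Ifnz, Ifng, Oas1g, Oas3, Cxcl10, Xist and Ddx3y were named after their values were seen. So were Lyz2, Mrc1, Cd163, C1qa, Fcgr1, Nppa and the endothelial markers. Of the other marker lists, monocyte markers summed to 21.3 to 29.4 after vehicle and 48.1 to 110 after doxorubicin, mural markers to 6357 to 11366 and 8001 to 11566, and lymphocyte markers to 12.0 to 32.4 and 6.01 to 52.4. Plots used matplotlib 3.10.9 (Python 3.11.15). Alternatives were other pseudocounts, filters, scalings and moderation, library weights, a class covariate, a replicate block and each library left out.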

Additional observations from a re-analysis of the deposited data

Results flagged for a closer look

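The changes of Rsad2 and Cmpk2 had opposite signs in the libraries with Xist and in those with Y-linked transcripts. Set against the vehicle libraries of the same class, the mean log2 change of Rsad2 was 1.17 in the Xist class (doxorubicin replicates 1 and 3 against vehicle replicate 3) and -0.0885 in the Y class (doxorubicin replicate 2 against vehicle replicates 1 and 2). For Cmpk2 the values were 0.86 and -0.21. In doxorubicin replicate 2 Rsad2 was at 301, within the range of the 3 vehicle libraries (299 to 334), so its change there was small. The difference was not tested, since the Y class holds 1 doxorubicin library, and class and library cannot be told apart there. Opposite signs of this kind, in either direction, were found in 16.6% of the genes tested. With libraries scaled to the same total, both genes were positive in the Y class as well, at 0.18 and 0.06.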

How the results depend on the processing

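The number of genes called depended on doxorubicin replicate 1. With all libraries 0 genes were called higher and 0 lower. With 1 library left out, between 0 and 2409 genes were called higher and between 0 and 2718 lower. Calls among the 8 genes numbered 0 to 3, those among the pathway genes 0 to 42, and 4 to 7 of the 8 genes had groups that do not overlap. The highest counts of calls came without doxorubicin replicate 1, where 19.3% of all genes were called higher and 41.1% in either direction. Of the 42 pathway genes called there, 39 were higher. The 7 with groups apart came without doxorubicin replicate 2, where 23.9% of all genes had groups apart on the higher side, against 19.2% with all libraries. Without replicate 2, 1 gene was called lower. Library weights, which gave doxorubicin replicate 1 a weight of 0.277, called 1954 genes higher (15.7% of all genes) and 2318 lower. Among them were 3 of the 8 genes (Ifit1, Ifit3 and Ifit3b, all higher) and 32 of the 68 pathway genes tested, 29 of these higher. The median log2 fold change of the 8 genes, 1.09, ran from 0.51 to 1.39 over the alternatives. Of 135 single-gene values under alternatives 128 kept their direction and their side of the threshold, 6 passed it, and 1 reversed: Mx1 at -0.40 without doxorubicin replicate 3, against 2.37 without doxorubicin replicate 1. Mx1 and Mx2 have no value at a minimum mean of 50. The lowest adjusted p of Rsad2, 0.0814, and of Ifit2, 0.0601, did not pass. A covariate for the class of library gave a median of 0.77. With the replicate number as a block, limma called 0 genes and the median of the 8 genes stayed at 1.09. The correlations of deviations between libraries of the same number were -0.128, 0.033 and -0.093 for numbers 1 to 3. Those between unlike numbers ran from -0.183 to 0.223. Deviations from means of 3 libraries are constrained, so these values cannot tell whether the numbers pair the libraries. Depth limits what can be said of Mx1 and the ligands.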
